A study of Mus musculus with 12 samples.

Results

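The G1 cyclins and their regulators described here are 10 of the 26840 genes tested. They are the D-type cyclins Ccnd1, Ccnd2 and Ccnd3, the E-type cyclins Ccne1 and Ccne2, the cyclin-dependent kinases Cdk4, Cdk6 and Cdk2, the kinase inhibitor Cdkn1b and the phosphatase Cdc25a. The genes were listed by name, and all non-control probes whose accession mapped to 1 of them were taken, which gave 16 of 56605 probes on 12 one-colour microarrays. Ccnd2 and Cdk4 had 3 probes each, Ccnd3 and Cdc25a had 2 each, and the other members had 1. A gene was represented by the probe with its highest mean. All 10 members passed the filter on dim probes, which asked for a signal well above background on each array of some group.

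Mouse embryonic stem cells, pluripotent cells derived from the early embryo, were cultured in all groups with leukaemia inhibitory factor (LIF) and 250 nM PD173074, which blocks the receptors of fibroblast growth factor, an upstream activator of the kinase ERK. Each of the 4 groups had 3 arrays, described as biological replicates. In the first, 1 µM MG132, a proteasome inhibitor, was given 30 min ahead of 250 nM 4OHT, and RNA was taken after 6 h. The second received 4OHT alone for 6 h, the third MG132 alone with the same timing, and the fourth was untreated and titled as 0 h. 4OHT (4-hydroxytamoxifen) is a ligand that activates fusion proteins carrying an altered oestrogen receptor. Which protein it acts on in these cells, the cell line and any vehicle are not given in the sources used here. No untreated array was titled 6 h, so the compound and the hours of culture cannot be told apart in a comparison with untreated cells. Nothing in the labels beyond the word biological says how replicates were separated, so a p-value speaks of the spread among these arrays, which may be partly technical.

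D-type cyclins bind CDK4 and CDK6 early in G1, and E-type cyclins bind CDK2 towards S phase. Together these kinases phosphorylate the retinoblastoma protein and free E2F factors, which switch on genes for DNA synthesis. CDKN1B (p27) holds cyclin E and CDK2 complexes inactive, and CDC25A removes inhibitory phosphates from CDK2. Growth factor signalling through ERK is known to act on D-type cyclin genes in many cell types, mouse embryonic stem cells have a short G1, and several of these proteins are destroyed by the proteasome. The arrays measured RNA only.

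A level below is a processed intensity on the log2 scale with the 75th percentile of its array set to 0, and levels are compared between groups of 1 probe and not between genes. Changes are given on the log2 scale as estimate ± standard error (SE) from a limma fit, and a gene passed the test at an adjusted p below 0.05 over all genes. Between 49.5% and 63.2% of probes lay well above background on an array. All 10 embryonic stem cell markers examined, among them Pou5f1 and Sox2, were well above background on all 12 arrays. Of the 2 slides, slide 2 carried every array of both compounds and replicate 3 of MG132, and slide 1 carried the remaining 8 arrays. Only MG132 had arrays on both slides, so a fit with slide as a block rests on its replicate 3 against its replicates 1 and 2. With slide alone as a block, a slide effect and a deviation of that array cannot be told apart. The replicate 3 arrays stood apart from the other replicates in 10.1% of genes, and among the members in Ccnd3, which was higher on them by 0.50 ± 0.05 (SE, adjusted p = 0.00058), and in Cdkn1b, which was lower (-0.52 ± 0.09, adjusted p = 0.0068). Deviations from the group mean had an SD of 0.51 on the 4OHT arrays, against 0.26 to 0.33 in the other groups.

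The stretch of 250 bases before a transcript start was read for 7 members from a table of RefSeq promoters (GRCm38.p6) and searched on both strands for the E2F octamers TTTCCCGC, TTTCGCGC, TTTGCCGC and TTTGGCGC, the ETS motif CCGGAAGT, the AP-1 motifs TGAGTCA and TGACTCA, and the E-box CACGTG, to which MYC and other factors bind. The E-box was added after the sequences had been seen. Of 32851 such stretches, 1.86% held an E2F octamer, 2.88% the ETS motif, 4.46% an AP-1 motif and 6.02% an E-box. Among the members, Cdk2 and Cdc25a held an E2F octamer each, Cdk6 held 1 E-box and Cdk4 held 4, and no match overlapped another. The Cdc25a match was TTTGGCGC, 67 to 60 bases before the start used. That start lies inside the annotated Cdc25a gene, and the match spans the first base of the gene. The stretch of Cdk6 and the second of 2 stretches of Ccnd3 also lie inside their annotated genes, whereas those of Cdk4 and Cdk2 end where the gene begins. A stretch with 4 or more E-boxes made up 0.0213% of the total, or 7 stretches. The cutoff of 4 is the count in Cdk4 itself, whose stretch is among the 7, so this share is only a description. The Cdk4 and Cdk2 sequences are shown since they hold the repeated E-box and the E2F match of the member kinases, with the matches in capitals. The Cdk4 sequence lies at chr10:127063285-127063534 on the plus strand, and the Cdk2 sequence at chr10:128705052-128705301 on the minus strand, written 5′ to 3′ along the gene.
Cdk4: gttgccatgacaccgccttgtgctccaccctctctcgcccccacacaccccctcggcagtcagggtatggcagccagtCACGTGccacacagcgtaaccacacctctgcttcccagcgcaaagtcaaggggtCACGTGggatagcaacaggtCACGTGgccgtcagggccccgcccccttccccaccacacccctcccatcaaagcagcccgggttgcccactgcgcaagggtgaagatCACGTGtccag
Cdk2: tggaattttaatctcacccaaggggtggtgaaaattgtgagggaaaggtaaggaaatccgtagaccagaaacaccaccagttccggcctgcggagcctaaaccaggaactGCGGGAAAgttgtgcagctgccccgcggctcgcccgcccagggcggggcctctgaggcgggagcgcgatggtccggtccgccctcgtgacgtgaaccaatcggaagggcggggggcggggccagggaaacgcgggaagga
The Cdk2 match is the reverse complement of an E2F octamer. A match is a description of the letters, and binding was not measured.

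**Figure D1:**
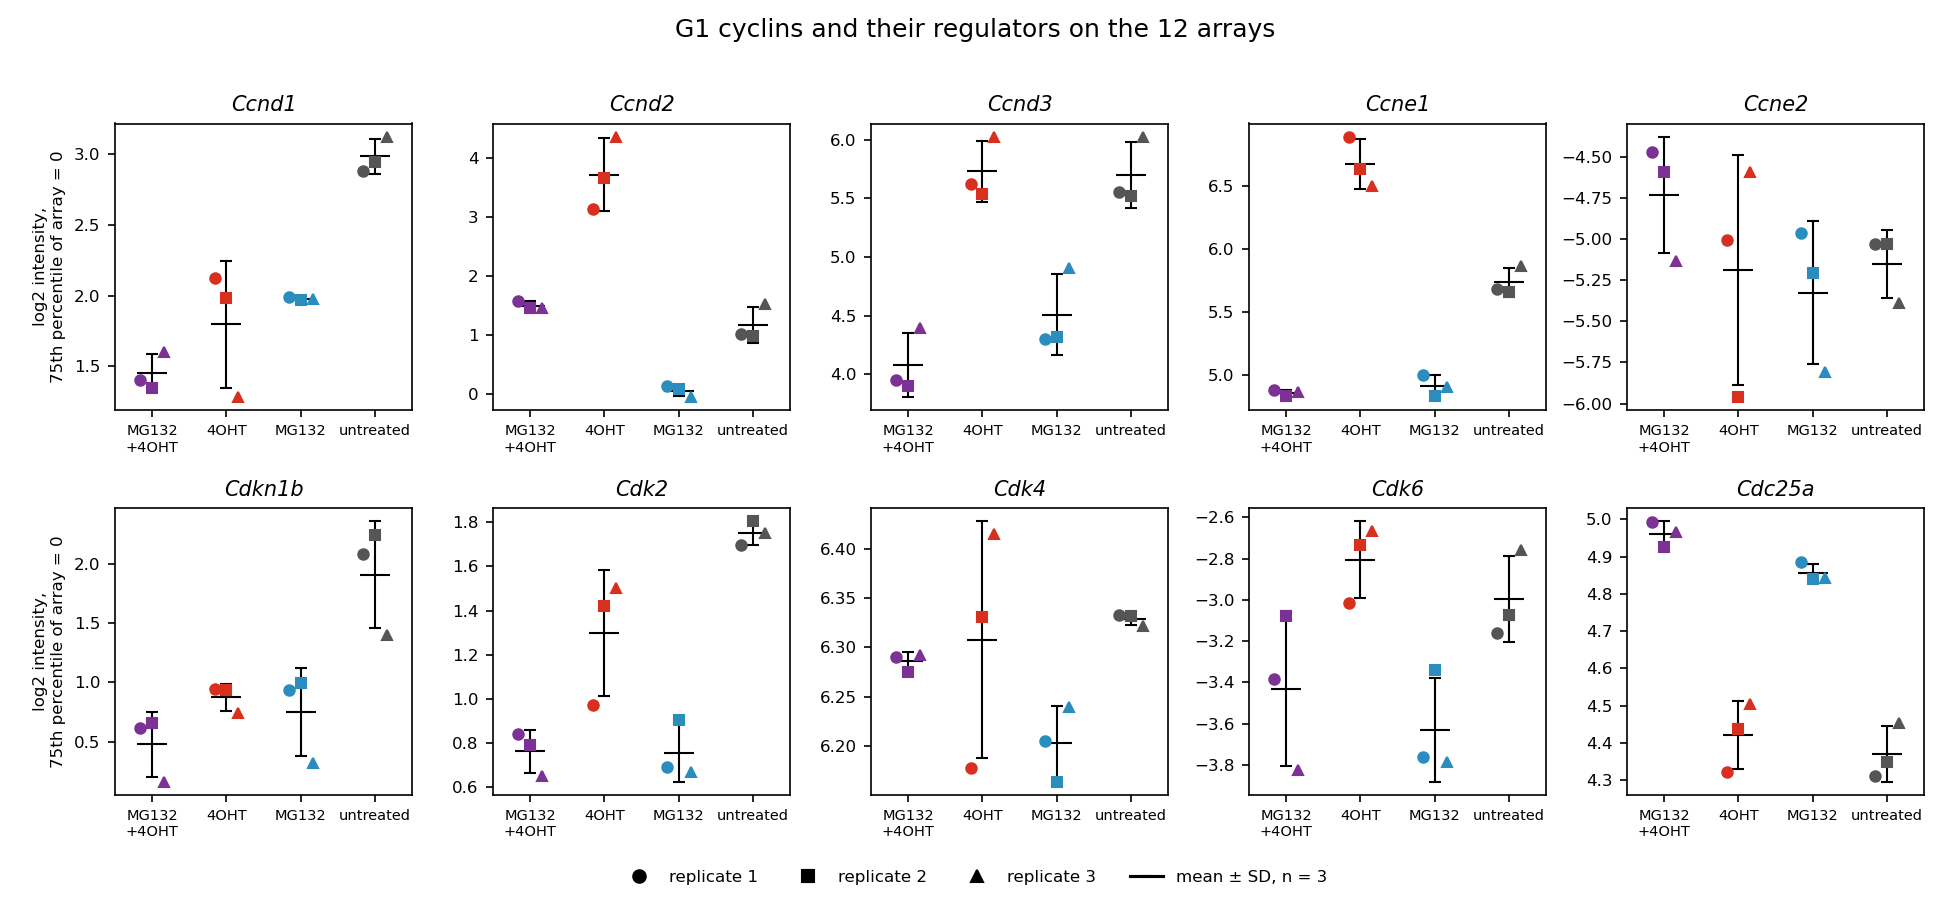
Levels of the 10 members on the 12 arrays (vertical axis, log2 of processed intensity with the 75th percentile of each array at 0), with the replicates as symbols and the mean ± SD of 3 arrays as bars. Each panel has its own scale. Ccnd2 was highest in 4OHT cells (3.13 to 4.36) and lowest in MG132 cells (-0.05 to 0.13), whereas Ccnd1 was highest in untreated cells (2.88 to 3.12).

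Among the D-type cyclins, Ccnd1, the classical growth factor responsive cyclin, had levels of 1.41, 1.35 and 1.60 in cells given both compounds, 2.12, 1.98 and 1.29 in 4OHT cells, 1.99, 1.97 and 1.97 in MG132 cells, and 2.88, 2.94 and 3.12 in untreated cells. Every untreated array lay above every treated one. The ranges of the MG132 and 4OHT arrays overlapped, as did those of the 4OHT arrays and the arrays with both compounds. Ccnd2, which encodes a second D-type partner of CDK4 and CDK6, had levels of 1.58, 1.46 and 1.46 in cells given both compounds, 3.13, 3.65 and 4.36 in 4OHT cells, 0.13, 0.08 and -0.05 in MG132 cells, and 1.01, 0.98 and 1.53 in untreated cells. The 4OHT arrays were the highest and the MG132 arrays the lowest, and only the groups with both compounds and without treatment overlapped. Ccnd3 had levels of 3.95, 3.90 and 4.40 in cells given both compounds, 5.63, 5.54 and 6.03 in 4OHT cells, 4.30, 4.31 and 4.91 in MG132 cells, and 5.56, 5.52 and 6.02 in untreated cells. Both groups with MG132 lay below both groups without it, and within each of these pairs the ranges overlapped.

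Of the E-type cyclins, Ccne1 had levels of 4.88, 4.83 and 4.86 in cells given both compounds, 6.89, 6.63 and 6.49 in 4OHT cells, 5.0, 4.83 and 4.90 in MG132 cells, and 5.68, 5.66 and 5.86 in untreated cells. The 4OHT arrays stood above the untreated arrays, and these above both groups with MG132, which overlapped. Ccne2 was close to background, with processed intensities of 7.41 to 18.6, and was well above background on 7 of 12 arrays and on none of the MG132 arrays. All neighbouring groups overlapped in its levels, and it passed no test in the main fit. With array weights it passed for both compounds against 4OHT (1.02, adjusted p = 0.010) and against MG132 (0.59, adjusted p = 0.028). The same setting brought the difference of 4OHT responses with and without MG132 past the threshold (1.16, adjusted p = 0.035). With normexp background correction it passed for both compounds against untreated cells (0.33, adjusted p = 0.040). The MG132 group had only a bound, and the observed mean of cells given both compounds lay 1.40-fold above that bound. The mean of untreated cells lay 1.05-fold above it. Group means were -4.73 with both compounds, -5.33 with MG132 and -5.15 in untreated cells. The fitted change for both compounds against MG132 had an interval of -0.17 to 1.35 (adjusted p = 0.23). For MG132 against untreated cells it ran from -0.93 to 0.58 (adjusted p = 0.72). Both intervals covered both signs, so the folds from the bound establish no minimum difference.

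Among the kinases, Cdk4, a partner of D-type cyclins, had levels of 6.29, 6.27 and 6.29 in cells given both compounds, 6.18, 6.33 and 6.41 in 4OHT cells, 6.20, 6.16 and 6.24 in MG132 cells, and 6.33, 6.33 and 6.32 in untreated cells. The MG132 arrays lay below the untreated arrays and those of both compounds, and the 4OHT arrays overlapped all other groups. Cdk6, the other partner of D-type cyclins, was dim, with processed intensities of 26.0 to 69.2. Its levels were -3.39, -3.08 and -3.82 in cells given both compounds, -3.02, -2.74 and -2.66 in 4OHT cells, -3.76, -3.34 and -3.79 in MG132 cells, and -3.16, -3.07 and -2.76 in untreated cells. Each group overlapped its neighbour in the order of levels. Cdk2, the partner of cyclin E, had levels of 0.84, 0.79 and 0.65 in cells given both compounds, 0.97, 1.42 and 1.5 in 4OHT cells, 0.69, 0.91 and 0.67 in MG132 cells, and 1.70, 1.80 and 1.75 in untreated cells. All untreated Cdk2 arrays lay above all 4OHT arrays, and these lay above both groups with MG132, which overlapped.

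Cdkn1b had levels of 0.62, 0.65 and 0.16 in cells given both compounds, 0.94, 0.94 and 0.74 in 4OHT cells, 0.94, 0.99 and 0.32 in MG132 cells, and 2.08, 2.24 and 1.40 in untreated cells. The untreated arrays were the highest, and replicate 3 was the lowest array of each group. Cdc25a had levels of 4.99, 4.92 and 4.97 in cells given both compounds, 4.32, 4.44 and 4.50 in 4OHT cells, 4.89, 4.84 and 4.84 in MG132 cells, and 4.31, 4.35 and 4.45 in untreated cells. The 2 groups with MG132 lay above the 2 groups without it, which overlapped.

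**Figure D2:**
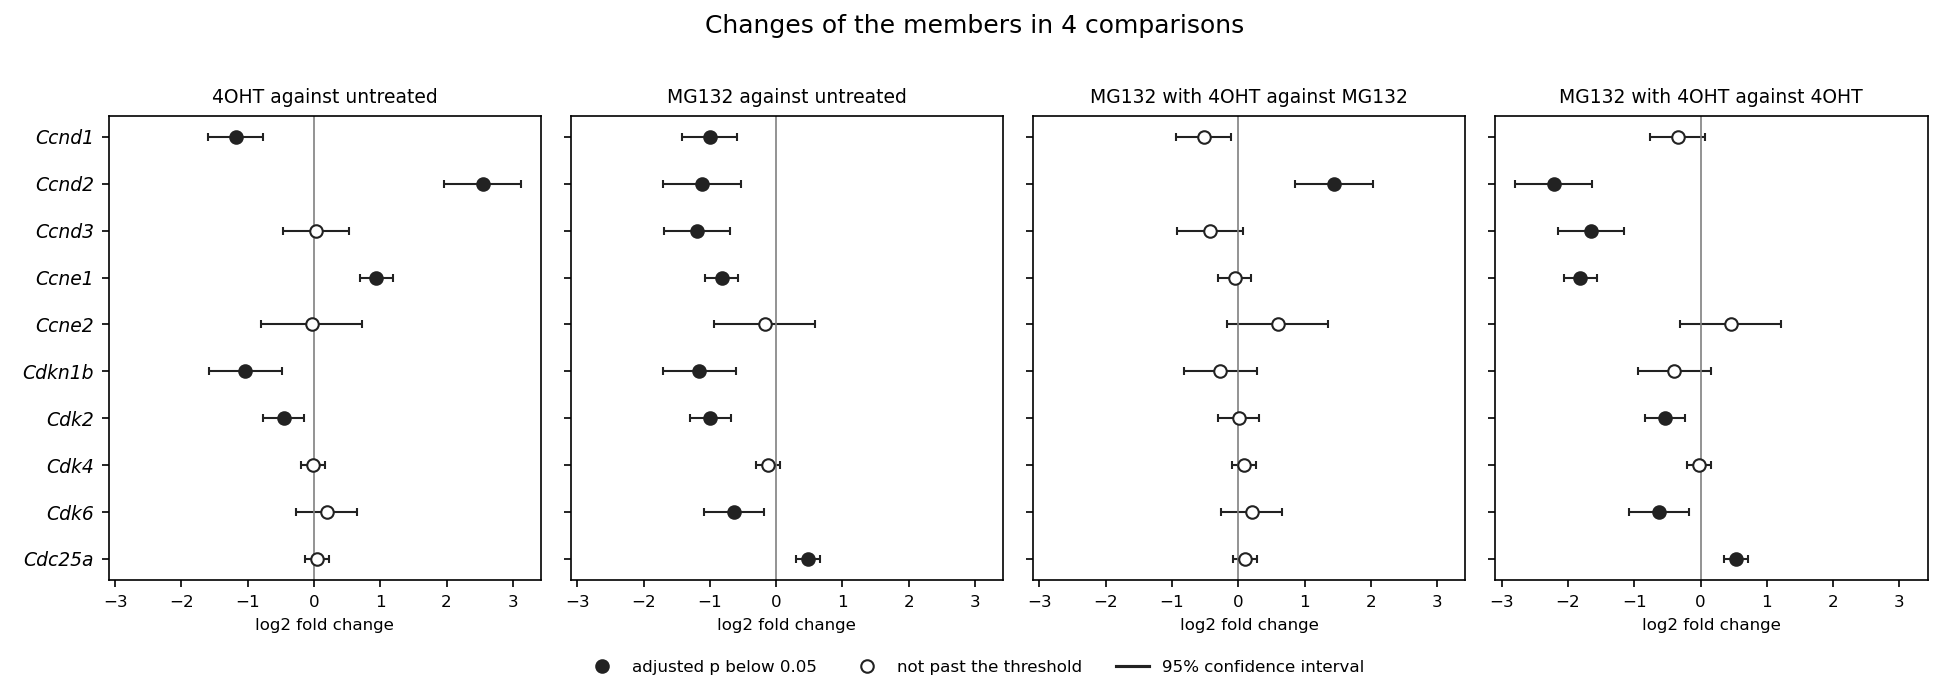
Log2 fold changes (horizontal axes) of the 10 members in 4 comparisons, with 95% confidence intervals from limma. Filled points passed the test at an adjusted p below 0.05. With 4OHT alone Ccnd2 (2.54) and Ccne1 (0.94) rose, and with MG132 alone 7 members fell and Cdc25a rose (0.49).

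The comparison of 4OHT cells with untreated cells asked what 4OHT changed with the proteasome uninhibited. Ccnd2 rose 5.83-fold (2.54 ± 0.26, adjusted p = 6.8e-05) and Ccne1 rose 1.92-fold (0.94 ± 0.11, adjusted p = 0.00017). Lower values were found for 3 members, where Ccnd1 fell by 1.18 (SE 0.19, adjusted p = 0.0010), Cdkn1b by 1.03 (SE 0.25, adjusted p = 0.010) and Cdk2 by 0.45 (SE 0.14, adjusted p = 0.033). Thus 5 of 10 members passed the test, 2 higher and 3 lower, against 28.6% of all genes (13.9% higher and 14.7% lower). In bulk RNA, fewer cells with a transcript and less RNA per cell cannot be told apart. For Ccnd3 (0.03), Ccne2 (-0.04), Cdk4 (-0.02), Cdk6 (0.19) and Cdc25a (0.05) the 95% intervals included 0, running for Ccnd3 from -0.46 to 0.53 and for Cdk4 from -0.20 to 0.16. The members' median was 0.0052 and that of all genes 0.026. The 3 Ccnd2 probes gave 2.53, 2.54 and 2.62. The Cdk2 call was lost with only the arrays compared (adjusted p = 0.12), within slide 1 (0.082), without 4OHT replicate 1 (-0.29, adjusted p = 0.062), without untreated replicate 1, 2 or 3 (0.068, 0.10 and 0.074) and without replicate 2 of the cells given both compounds (0.0501). The summed intensity of 9 trophoblast markers, relative to the 75th percentile, was 20.0 to 46.3 in 4OHT cells and 11.5 to 12.6 in untreated cells, with Elf5 well above background on no array and Cdx2 on 6. That of 13 fibroblast markers was 104 to 138 in 4OHT cells and 66.5 to 90.9 in untreated cells, with Lum well above background on no array and Col3a1 on 1. That of 11 primitive endoderm markers was 11.4 to 30.9 in 4OHT cells and 28.1 to 39.9 in untreated cells, of which Lama1 alone gave 9.52 to 26.8 in 4OHT cells and 26.0 to 35.4 in untreated cells. None of these 11 passed the test lower and 1 passed higher, Foxa2 (1.31). Of the 8 trophoblast markers tested 5 rose and 1 fell, and of the 10 fibroblast markers tested 4 rose and 2 fell. Among the 13 fibroblast markers, 6 to 8 were well above background on a 4OHT array and 9 on an untreated array. Their number thus went the other way from their summed intensity. Col1a1 was well above background on every untreated array and on no 4OHT array. Of 10 embryonic stem cell markers 1 rose and 2 fell, among them the pluripotency factor Nanog (-2.43 ± 0.13), and they summed to 867 to 901 in 4OHT cells and 877 to 923 in untreated cells. The part of these markers' cell types in the changes was not tested.

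Since Ccnd2 rose and Ccnd1 fell with 4OHT, their difference within arrays, which does not depend on the scaling of an array, is given as a description with no test. Only its change between groups is read, and it combines the separate changes of both genes. It was 1.01, 1.67 and 3.07 in 4OHT cells and -1.87, -1.96 and -1.60 in untreated cells, a change of 3.73 (SE 0.62) or 13.2-fold. In cells given both compounds it was 0.17, 0.11 and -0.15, against -1.86, -1.89 and -2.02 in MG132 cells, a change of 1.97 (SE 0.11) or 3.91-fold. Between MG132 cells and untreated cells the change was -0.11 (SE 0.12).

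Among the 6 other G1 kinase inhibitor genes, 3 passed the test higher and 2 lower with 4OHT (median 0.16). Over all genes 13.9% passed higher and 14.7% lower, the shares to set beside each list count of this comparison. Cdkn1a, which encodes p21, had levels of 0.43, -0.16 and 0.06 in 4OHT cells and 1.30, 1.21 and 1.28 in untreated cells and fell by 1.15 (SE 0.14), although the mean over its probes gave -0.55 (adjusted p = 0.25). Cdkn1c, which encodes p57, rose by 1.01 ± 0.20, and Cdkn2c, which encodes the CDK4 and CDK6 inhibitor p18, fell by 0.89 (SE 0.18), a call lost with normexp background correction. Of 13 RB and E2F family genes, 3 rose and 4 fell. The E2F partner Tfdp2 changed by -1.48 ± 0.21, the repressive member E2f6 by 1.27 ± 0.11 and the activator E2f2 by 1.11 ± 0.16. Of 20 E2F target genes of S phase, none rose and 3 fell, a count near the 14.7% of all genes that fell. The median of the targets was -0.18, beside 0.026 over all genes. Those that fell were the origin factor Orc1 (-0.65 ± 0.17), the histone mRNA binding protein gene Slbp (-0.54 ± 0.08) and the ribonucleotide reductase gene Rrm2 (-0.44 ± 0.10). Of 11 genes for CDK-activating kinase, CDC25 and checkpoint control, 1 rose and 5 fell (median -0.25), with the checkpoint kinase genes Chek2 at -1.40 ± 0.19 and Chek1 at -0.61 ± 0.10 and the phosphatase gene Cdc25b at -0.72 ± 0.17, whose call the mean over probes lost (adjusted p = 0.16). Among 15 genes for turnover of G1 cyclins and p27, 1 rose and 3 fell, with the ubiquitin ligase scaffold Cul4a at -0.82 ± 0.10, the F-box gene Btrc at -0.52 ± 0.12 and Fbxo4, an F-box gene linked to cyclin D1, at 0.78 ± 0.23. The Fbxo4 call was lost in 8 of 27 settings, among them leaving out any 1 untreated array or 4OHT replicate 1 or 2 (adjusted p up to 0.098), and the Btrc call in 2. The Orc1 call was lost without untreated replicate 1 or 2 (adjusted p up to 0.057).

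The comparison of MG132 cells with untreated cells asked what proteasome inhibition changed without 4OHT. All 3 D-type cyclins fell, Ccnd1 by 1.00 (SE 0.19, adjusted p = 0.0018), Ccnd2 by 1.12 (SE 0.26, adjusted p = 0.0063) and Ccnd3 by 1.19 (SE 0.22, adjusted p = 0.0017). Ccne1 fell by 0.82 (SE 0.11, adjusted p = 0.00025), Cdk2 by 1.00 (SE 0.14, adjusted p = 0.00028), Cdkn1b by 1.16 (SE 0.25, adjusted p = 0.0037) and Cdk6 by 0.63 (SE 0.20, adjusted p = 0.029). Cdc25a rose by 0.49 ± 0.08 (adjusted p = 0.00086), but by 0.15 with median centring (adjusted p = 0.31). In all, 8 of 10 members passed, 1 higher and 7 lower, against 43.1% of all genes (24.1% higher and 19% lower). The members' median was -0.91, beside 0.071 over all genes. Median centring moved the median of all genes by -0.34 in this comparison, by -0.16 for 4OHT against untreated cells, by -0.24 for both compounds against 4OHT and by -0.40 for both against untreated cells. Normexp moved it by 0.13 for 4OHT against untreated cells. The representing Cdk4 probe changed by -0.13 (adjusted p = 0.24), while the other 2 probes of the gene passed the test at -0.23 ± 0.08 (adjusted p = 0.049) and -0.47 ± 0.07 (adjusted p = 0.00061). The mean over the Cdk4 probes gave -0.27 (adjusted p = 0.014). The Ccnd2 call was lost within slide 1 (-1.07, adjusted p = 0.054). The Cdk6 call was lost in 9 of 27 settings, among them normexp (-0.24, adjusted p = 0.058) and leaving out MG132 replicate 1 (0.089) or 3 (0.090) or untreated replicate 2 (0.056) or 3 (0.10). All 10 embryonic stem cell markers fell as well, with a summed intensity relative to the 75th percentile of 520 to 532 in MG132 cells and 877 to 923 in untreated cells. Of the 8 trophoblast markers tested 2 rose and none fell (sums 16.1 to 18.8 in MG132 cells and 11.5 to 12.6 in untreated cells), and of the 10 fibroblast markers tested 4 rose and 1 fell (72.8 to 77.7 in MG132 cells and 66.5 to 90.9 in untreated cells). The part of these markers in the members' changes was not tested.

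Beside the fall of Cdkn1b, 3 of the 6 other inhibitor genes rose and 1 fell with MG132 (median 0.40). Over all genes 24.1% passed higher and 19% lower, the shares to set beside each list count of this comparison. Cdkn2b, which encodes the CDK4 and CDK6 inhibitor p15, had levels of 1.29, 1.31 and 1.44 in MG132 cells and -2.19, -2.03 and -1.98 in untreated cells, a change of 3.42 ± 0.19 (adjusted p = 1.4e-06). Cdkn1a rose by 0.98 ± 0.14, and Cdkn2d, which encodes p19, fell by 0.83 (SE 0.16). Of 13 RB and E2F family genes 4 rose and 3 fell. Rb1, the retinoblastoma gene, had levels of 1.78, 1.65 and 1.63 in MG132 cells and -0.73, -0.64 and -1.11 in untreated cells, a rise of 2.51 ± 0.21 (adjusted p = 1.1e-05). The retinoblastoma relative Rbl2 rose by 1.26 ± 0.25 and E2f6 by 1.47 ± 0.11. Of 20 E2F target genes 12 fell and 1 rose (median -0.38), with the thymidine kinase gene Tk1 at -0.99 ± 0.10, the replication licensing inhibitor Gmnn at -0.95 ± 0.12 and the thymidylate synthase gene Tyms at -0.75 ± 0.09. Of 15 turnover genes 2 rose and 6 fell (median -0.30). Fbxw7, which encodes the F-box protein that targets cyclin E, rose by 1.57 ± 0.13, and Fbxo31, an F-box gene linked to cyclin D1 turnover, fell by 0.98 (SE 0.18). Rbx1, the RING subunit of cullin ligases, fell by 0.84 (SE 0.27), a call lost without untreated replicate 3 or MG132 replicate 1 or 2 (adjusted p up to 0.10). Of 11 kinase and checkpoint control genes 1 rose and 5 fell (median -0.25), with Cdk7 of the CDK-activating kinase at -0.86 ± 0.11, its cyclin Ccnh at -0.51 ± 0.12 and the CDK inhibitory kinase Wee1 at -0.73 ± 0.10. The smaller rises of Ddb1 among the turnover genes (0.24) and Pkmyt1 among the control genes (0.33), both outside the naming rule, turned to negative values with median centring, and Pkmyt1 did so against untreated cells with both compounds too.

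**Figure D3:**
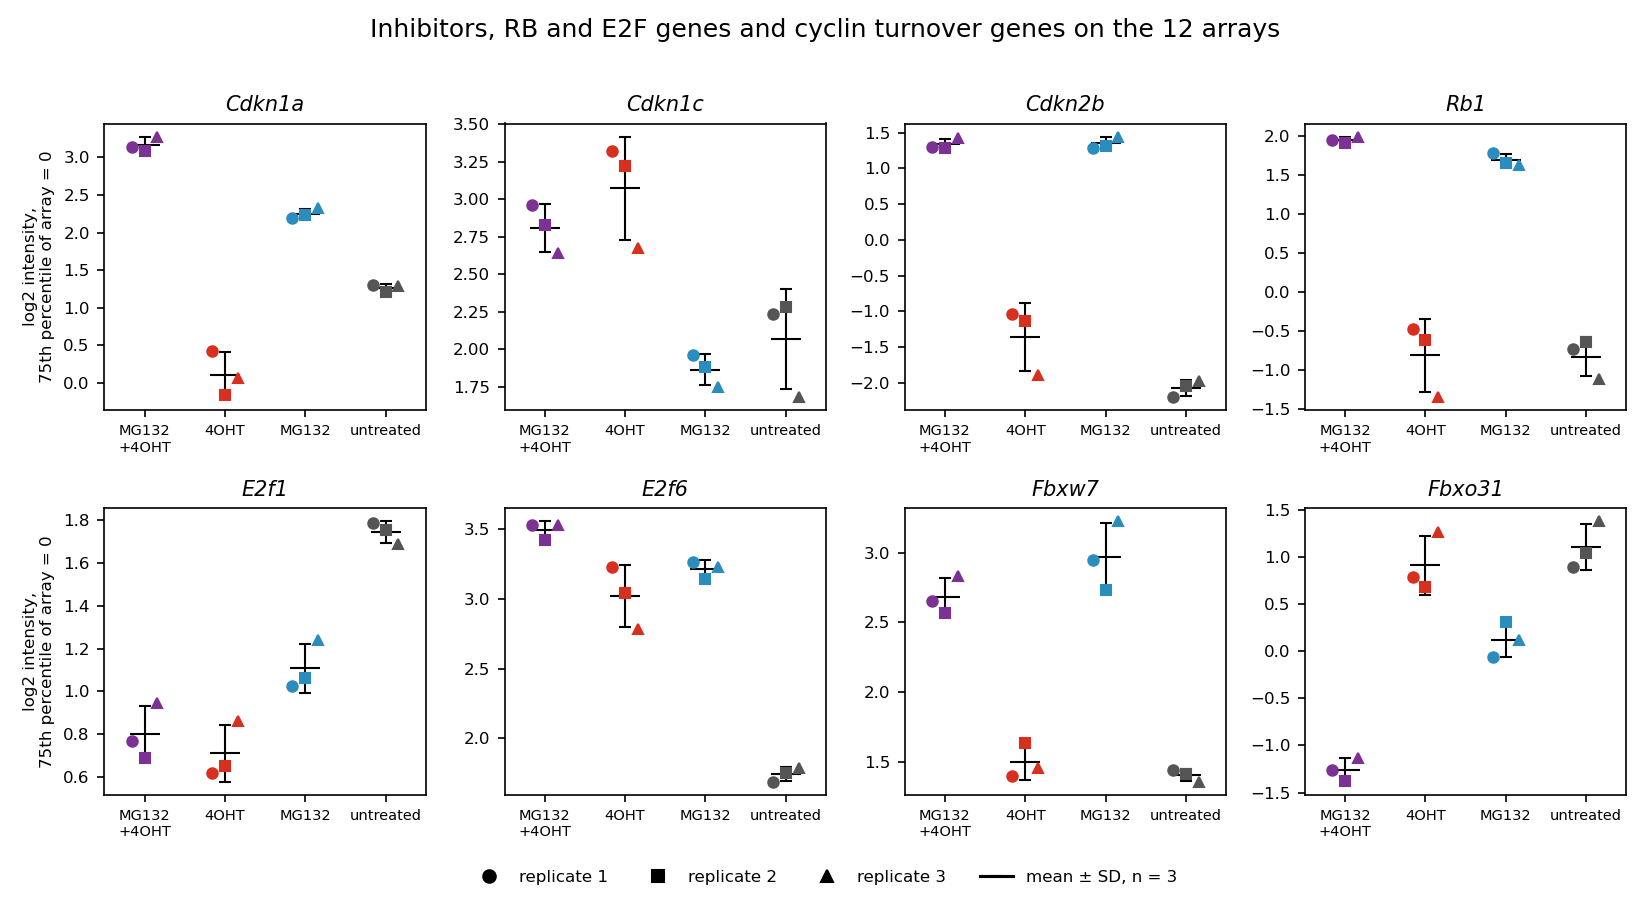
Levels of 8 genes of the pathway lists on the 12 arrays (vertical axis, log2 of processed intensity with the 75th percentile of each array at 0), with replicates as symbols and mean ± SD of 3 arrays as bars, each panel on its own scale. Cdkn2b, Rb1 and Fbxw7 were higher in both groups with MG132 than in both groups without it, and Cdkn1a was lowest in 4OHT cells (-0.16 to 0.43).

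The comparison of cells given both compounds with MG132 cells asked what 4OHT changed under proteasome inhibition. Ccnd2 rose 2.72-fold (1.44 ± 0.26, adjusted p = 0.0033) and was the 1 member of 10 that passed the test, against 26.5% of all genes (13.9% higher and 12.6% lower). Its 3 probes gave 1.71, 1.44 and 1.72. Ccnd1 changed by -0.52 ± 0.19 (adjusted p = 0.065), with all 3 arrays of both compounds below all 3 MG132 arrays, and it passed in 9 of 27 settings, with only the arrays compared at an adjusted p of 0.010 and without 4OHT replicate 1 or 3 at 0.036 and 0.0042. Ccne1 changed by -0.05 (interval -0.30 to 0.20, adjusted p = 0.75), Ccnd3 by -0.43 (-0.92 to 0.07, adjusted p = 0.19; 0.0032 with the replicate block and 0.029 with slide and replicate blocks) and Cdkn1b by -0.27 (-0.82 to 0.28, adjusted p = 0.44). Cdk2 (0.01), Cdk4 (0.08), Cdk6 (0.20) and Cdc25a (0.11) also did not pass. In each same-numbered pair Ccnd3 was lower on the array of both compounds, and the block raised the members that passed to 2. The arrays do not show that replicates 1 and 2 pair by number, so the blocked values depend on that choice. The members' median was 0.044 and that of all genes 0.074. The trophoblast markers summed to 25.7 to 42.6 in cells given both compounds and 16.1 to 18.8 in MG132 cells, the fibroblast markers to 86.3 to 102 in cells given both compounds and 72.8 to 77.7 in MG132 cells. Of these lists 4 of 8 trophoblast markers rose and 1 fell and 3 of 10 fibroblast markers rose, while 4 of 10 embryonic stem cell markers fell and none rose (499 to 575 in cells given both compounds and 520 to 532 in MG132 cells). The part of these markers in the changes was not tested.

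Of the 6 other inhibitor genes 2 rose and none fell under MG132, Cdkn1c by 0.95 ± 0.20 and Cdkn1a by 0.92 ± 0.14 (adjusted p = 0.0011). Over all genes 13.9% passed higher and 12.6% lower, the shares to set beside each list count of this comparison. The Cdkn1a levels were 3.14, 3.08 and 3.28 in cells given both compounds and 2.19, 2.23 and 2.32 in MG132 cells. Of 13 RB and E2F family genes 2 rose and 1 fell, the activator E2f3 (0.76 ± 0.15), the repressor E2f8 (0.40 ± 0.10) and the E2F partner Tfdp1 (-0.53 ± 0.11). Of 20 E2F target genes 5 rose and 1 fell, with the replication clamp Pcna at 0.55 ± 0.09, the licensing factor Cdc6 at 0.54 ± 0.11 and Tk1 at -0.38 ± 0.10. Among 15 turnover genes 2 rose and 4 fell, with Fbxo4 at 1.42 ± 0.23, Fbxo31 at -1.38 ± 0.18 and Btrc at -0.61 ± 0.12. Of 11 control genes 1 rose and 3 fell, with Cdk7 at 0.52 ± 0.11, Chek2 at -0.86 ± 0.19 and Cdc25b at -0.53 ± 0.17, a call lost in 16 of 27 settings. The calls for Pcna, Cdc6, Tk1, E2f8, Tfdp1, Fbxo4, Btrc, Cdk7, Cdc25b and Chek2 were lost within slide 2, where MG132 had 1 array. That of E2f8 was also lost without MG132 replicate 2 or replicate 1 or 2 of both compounds (adjusted p up to 0.11). Tk1, which is outside the naming rule, also lost its call without MG132 replicate 3 or replicate 1 or 2 of both compounds (adjusted p up to 0.11).

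**Figure D4:**
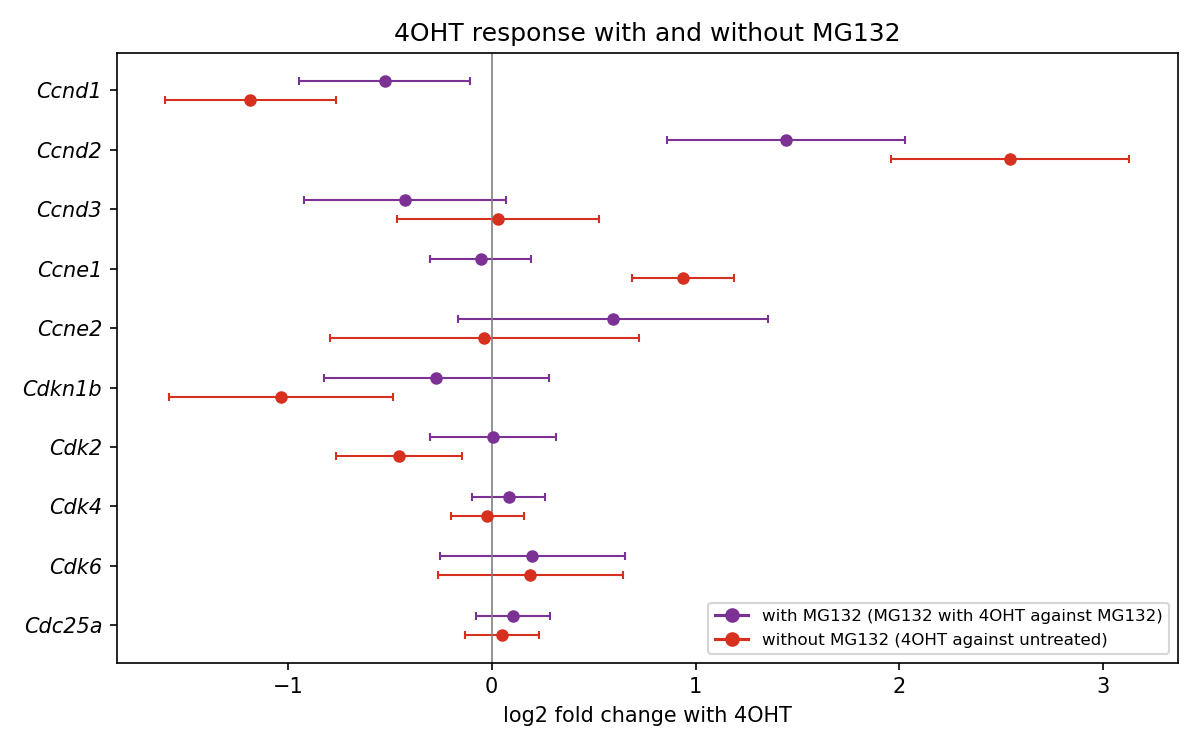
Log2 fold changes with 4OHT (horizontal axis) of the 10 members, in purple with MG132 present (both compounds against MG132) and in red without it (4OHT against untreated), with 95% confidence intervals from limma. For Ccne1 the response was -0.05 with MG132 and 0.94 without it. The red points set 6 h against 0 h, and the purple points 6 h against 6 h.

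The difference between the 4OHT responses, with MG132 minus without it, was tested as an interaction. The response without MG132 sets cells at 6 h against untreated cells at 0 h, whereas the response with MG132 sets 6 h against 6 h. Hours of culture therefore enter the difference, and their part cannot be told apart from that of the compounds. Ccne1 was the 1 member of 10 that passed, with a difference of -0.99 ± 0.16 (adjusted p = 0.0057), against 6.56% of all genes (2.94% positive and 3.61% negative). Its 4OHT response was -0.05 with MG132 and 0.94 without. The Ccnd2 response was 1.44 with MG132 and 2.54 without, a difference of -1.10 ± 0.37 that did not pass (adjusted p = 0.12), although it passed with array weights (-1.26, adjusted p = 0.0026) and without 4OHT replicate 1 (-1.39, adjusted p = 0.022). Differences for Ccnd1 (0.66, interval 0.07 to 1.25), Cdkn1b (0.76, -0.02 to 1.54) and Cdk2 (0.46, 0.02 to 0.90) had adjusted p values of 0.19, 0.25 and 0.21. The other members had adjusted p values from 0.45 to 0.99. With slide and replicate as blocks together the Ccne1 difference was -1.0 (adjusted p = 0.058), and with slide as a block it was -0.99 (adjusted p = 0.038). The response of Cdkn1a was 0.92 with MG132 and -1.15 without it, a difference of 2.07 ± 0.19 (adjusted p = 0.00042), which the mean over its probes put at 1.55 (adjusted p = 0.078). In the inhibitor list 1 gene passed higher and 1 lower, Cdkn1a and Cdkn2a (-0.65 ± 0.11). In the RB and E2F list they were E2f1 (0.73 ± 0.15), an activator of S phase genes, and E2f6 (-0.99 ± 0.16). Mean E2f1 levels were 0.71 in 4OHT cells and 1.74 in untreated cells. With MG132 they were 0.80 in cells given both compounds and 1.11 in MG132 cells, so the positive difference was a smaller fall. Of 20 E2F targets 3 passed higher, among them Slbp (0.90 ± 0.12) and Cdc6 (0.71 ± 0.16), of 15 turnover genes 2 passed lower, Fbxo31 (-1.18 ± 0.25) and Usp28 (-0.63 ± 0.12), and of 11 control genes Chek1 passed higher (0.65 ± 0.14). The calls for Cdkn2a and Usp28 were lost with median centring and with slide and replicate blocks, and those for Cdc6, Fbxo31 and Chek1 with slide as a block and without 1 array, among them MG132 replicate 2, untreated replicate 1 or 2 and replicate 2 of both compounds (adjusted p up to 0.15). The E2f6 call was lost with slide and replicate blocks together, and the E2f1 call with either slide block and without replicate 1 or 2 of untreated or of MG132 cells (adjusted p up to 0.12).

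Cells given both compounds were also set against 4OHT cells, which shows what MG132 changed in the presence of 4OHT. Ccne1 fell by 1.81 (SE 0.11, adjusted p = 1.5e-06), Ccnd2 by 2.22 (SE 0.26, adjusted p = 8.1e-05) and Ccnd3 by 1.65 (SE 0.22, adjusted p = 0.00019), while Cdc25a rose by 0.54 ± 0.08 (adjusted p = 0.00036), or by 0.30 with median centring (adjusted p = 0.054). Cdk2 (-0.54, adjusted p = 0.0089) and Cdk6 (-0.62, adjusted p = 0.027) fell too, so that 6 of 10 members passed, 1 higher and 5 lower, against 50.2% of all genes (29.3% higher and 20.9% lower). Ccnd1 (-0.35, adjusted p = 0.15) and Cdkn1b (-0.40, adjusted p = 0.21) did not pass, and Ccnd1 passed without 4OHT replicate 3 (-0.60, adjusted p = 0.0019). The representing Cdk4 probe changed by -0.02 (adjusted p = 0.84), while both its other probes passed at -0.25 (adjusted p = 0.029) and -0.21 (adjusted p = 0.037). As a gene, Cdk4 passed in 0 of 26 settings. The members' median was -0.47 and that of all genes 0.13. This comparison lies across the slides, and the slide adjustment rests on MG132 replicate 3 against the other MG132 arrays. With slide as a block Cdk2 was at -0.41 (adjusted p = 0.30), Cdk6 at -0.39 (adjusted p = 0.51) and Cdkn1b at 0.25 (adjusted p = 0.70). With slide and replicate blocks together Ccnd2 was at -1.59 (adjusted p = 0.054). The Cdk6 call was also lost without 4OHT replicate 2 or 3 and without replicate 1 or 3 of the cells given both compounds (adjusted p from 0.057 to 0.10). Cdkn1a rose by 3.06 ± 0.14, Rb1 by 2.77 ± 0.21, Cdkn2b by 2.69 ± 0.19, Tfdp2 by 1.28 ± 0.21, Fbxw7 by 1.19 ± 0.13, Rbl2 by 1.02 ± 0.25, Cdkn2c by 0.86 ± 0.18 and Chek2 by 0.74 ± 0.19. Fbxo31 fell by 2.16 (SE 0.18), Usp28 by 1.19 (SE 0.09), Tk1 by 1.06 (SE 0.10), Cdk7 by 0.92 (SE 0.11), Ccnh by 0.87 (SE 0.12) and Gmnn by 0.69 (SE 0.12). With slide as a block the calls for Tfdp2, Rbl2, Cdkn2c, Chek2 and Gmnn were lost. In this comparison 3 of 6 inhibitor genes rose and 1 fell, 6 of 13 RB and E2F genes rose and 3 fell, 4 of 20 E2F targets rose and 8 fell, 3 of 11 control genes rose and 5 fell, and 1 of 15 turnover genes rose and 6 fell. Of the embryonic stem cell markers 9 of 10 fell, with sums of 499 to 575 in cells given both compounds and 867 to 901 in 4OHT cells, and their part in the result was not tested. Of the E2F targets, Slbp (0.24), outside the naming rule, turned to a negative value with median centring.

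In cells given both compounds against untreated cells, 6 of 10 members passed, 1 higher and 5 lower, against 55.6% of all genes (33.2% higher and 22.5% lower). Ccnd3 fell by 1.62 (SE 0.22, adjusted p = 0.00017), Ccnd1 by 1.53 (SE 0.19, adjusted p = 8.2e-05), Cdkn1b by 1.43 (SE 0.25, adjusted p = 0.00074), Cdk2 by 0.99 (SE 0.14, adjusted p = 0.00019) and Ccne1 by 0.88 (SE 0.11, adjusted p = 0.00011). Cdc25a rose by 0.59 ± 0.08 (adjusted p = 0.00016), or by 0.19 with median centring (adjusted p = 0.20). Ccnd2 changed by 0.32 (interval -0.26 to 0.91, adjusted p = 0.32), while 1 of its other probes passed at 0.67 (adjusted p = 0.040), the remaining one gave 0.37 (adjusted p = 0.23) and array weights gave 0.47 (adjusted p = 0.0045). The representing Cdk4 probe changed by -0.04 (adjusted p = 0.68), while both its other probes passed at -0.26 (adjusted p = 0.023) and -0.31 (adjusted p = 0.0055). The mean over the Cdk4 probes gave -0.20 (adjusted p = 0.042). The members' median was -0.66 and that of all genes 0.19. With slide as a block Cdkn1b was at -0.78 (adjusted p = 0.18), and with slide and replicate blocks Cdk2 was at -0.81 (adjusted p = 0.072). Among the lists, 4 of 6 inhibitor genes rose and 1 fell, namely Cdkn2b (3.40 ± 0.19), Cdkn1a (1.90 ± 0.14) and Cdkn2d (-1.05 ± 0.16) among others. Of 13 RB and E2F genes 4 rose and 4 fell, with Rb1 at 2.78 ± 0.21, E2f6 at 1.75 ± 0.11 and E2f1 at -0.94 ± 0.11. Of 20 E2F targets 1 rose and 9 fell, with Tk1 at -1.37 ± 0.10, Gmnn at -0.91 ± 0.12 and Rrm1, a ribonucleotide reductase gene, at -0.75 ± 0.09. Of 15 turnover genes 2 rose and 7 fell, with Fbxo31 at -2.36 ± 0.18, Fbxo4 at 1.35 ± 0.23 and Fbxw7 at 1.28 ± 0.13, and of 11 control genes 1 rose and 7 fell, with Wee1 at -0.93 ± 0.10, Cdc25b at -0.78 ± 0.17 and Cdc25c at -0.69 ± 0.09. With slide and replicate blocks together the calls for Cdc25b, Cdc25c, Fbxo4 and Gmnn were lost. Again 9 of 10 embryonic stem cell markers fell, 6 of 8 trophoblast markers rose and 1 fell (sums 25.7 to 42.6 in cells given both compounds and 11.5 to 12.6 in untreated cells), and 5 of 10 fibroblast markers rose and 1 fell (86.3 to 102 in cells given both compounds and 66.5 to 90.9 in untreated cells). The part of these markers was not tested. The comparisons with untreated cells share those 3 arrays, and those with cells given both compounds share theirs.

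Over the 12 arrays, the 2 genes with the most similar levels to each member but Cdc25a were taken from 15920 genes with a symbol by Pearson correlation, as a description of arrays that share their groups. They were Spin4 and Fadd for Ccnd1 (0.97 each), Arpc1b (0.99) and Tpbgl (0.98) for Ccnd2, Glod5 and Ildr1 for Ccnd3 (0.99 each), and Zfc3h1 and Pum2 for Ccne1 (0.99 each). For Cdkn1b they were Leprot (0.98) and Slc16a6 (0.97), for Cdk2 Myl12b and Gadd45gip1 (0.98 each), and for Cdk4 Nsmce1 and Bri3 (0.94 each). They were Zfp286 (0.96) and Ccsap (0.93) for the dim Cdk6 and Cep55 (0.84) and Trim36 (0.80) for Ccne2.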

How the data were processed

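RNA of each sample was read in 1 colour (Cy3) on an Agilent mouse microarray, per the labels. For every array the authors deposited the scanner's intensity values, written by Feature Extraction software version 11.0.1.1 as the headers state, in which the processed intensity has had background subtracted and no scaling between arrays. A series-wide set of intensity values that the authors deposited was identical (largest difference 0). Of 62976 spots, 3671 control spots were left out, and outlier spots were dropped. No spot was saturated. Spots of a probe were averaged. Accessions were matched without version to RefSeq names (GRCm38.p6), and 32994 of 56605 probes received a symbol. From the deposited intensity, log2 values were computed and each array's 75th percentile over non-control spots (309 to 485) was subtracted. The dim filter described with the members left 34331 probes and 26840 genes.

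limma 3.58.1 (R 4.3.3; data.table version 1.17.8, jsonlite 2.0.0) fitted a mean for each group using the 12 arrays together (8 residual and 2.08 prior degrees of freedom), without intensity trend, with Benjamini-Hochberg adjustment over all genes in each of 6 comparisons. The fit was tested on simulated data. Groups came from the titles. A group with no array well above background has only a bound, in which each of its arrays takes whichever is larger, the probe's signal or the dimmest one that counts as well above background. The number of arrays limits the precision. Plots used Python 3.11.15, pandas 2.3.3, matplotlib 3.10.9 and numpy 2.4.6.

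The members and lists were chosen with earlier results of these data known. Named were all members, up to 3 passing genes of each of 5 pathway lists (65 genes) with the largest change per comparison, and the 2 genes most correlated with each member. Those for Cdc25a, and 1 gene of the E2F target list, are not reported here. Genes named outside that rule (Ddb1, Pkmyt1, Tk1 and Slbp where marked, the neighbours of Cdkn1b and Ccne1, and the choice of plotted list genes) were chosen after their values were seen. The 17 kinds of alternative covered background correction, normalization, filter, probe choice, variance, slide, replicate and left-out arrays. Same-numbered replicates correlated at -0.06 to 0.41, over 0.1 in 11 of 18 pairs, among them all 6 pairs of replicate 3. Different-numbered replicates correlated at -0.29 to 0.19, over 0.1 in 8 of 36 pairs, all between replicates 1 and 2. The values thus set replicate 3 apart, and do not show that replicates 1 and 2 pair by number. Every same-numbered pair passed 0.1 for both compounds against MG132 and against untreated cells, where the replicate number was taken to pair the samples and the blocked value is given where it changed a call. In the other comparisons the number was not taken to pair the samples. Between both compounds and MG132, replicates 1 and 2 also correlated across numbers, at 0.15 and 0.17, beside 0.16 and 0.14 within numbers. Pairing replicates 1 and 2 by number is thus a choice that the correlations do not bear out.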

Additional observations from a re-analysis of the deposited data

Results flagged for a closer look

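The 4OHT response of Ccne1 differed between cells with and without MG132. Only the response without MG132 sets 6 h against 0 h, so hours of culture and the compounds cannot be told apart in this difference. With MG132 the response was -0.05 and without it 0.94, and the interaction was -0.99 ± 0.16 (adjusted p = 0.0057, limma). All 3 4OHT arrays lay above all 3 untreated arrays, while the arrays of both compounds and of MG132 overlapped. All arrays of both compounds and MG132 replicate 3 were on slide 2 and the other 8 arrays on slide 1. The slide adjustment therefore rests on MG132 replicate 3 against the other MG132 arrays. With slide as a block the difference was -0.99 (adjusted p = 0.038), while with slide and replicate blocks together it was -1.0 (adjusted p = 0.058). Leaving out 1 array gave -1.08 to -0.88.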

How the results depend on the processing

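For the count of members that passed the test, leaving out 1 array gave 4 to 5 for 4OHT against untreated cells, 7 to 8 for MG132 against untreated cells, 1 to 2 for both compounds against MG132, 5 to 6 for both against 4OHT, 6 to 7 for both against untreated cells and 1 to 2 for the difference of 4OHT responses. Both compounds against MG132 gave 4 members with array weights and 2 with a filter on all 12 arrays, an intensity trend with robust variance, median centring, normexp, only the arrays compared, quantile normalization, the replicate block, and slide and replicate blocks together. Both against 4OHT gave 3 with slide and replicate blocks together. The difference of responses gave 4 with array weights, 2 with normexp, 3 with the replicate block and 0 with slide and replicate blocks together. The replicate block left the other counts within 1.5 times. Where the numbers were not taken to pair the samples, it brought Ccnd3 (-0.46, adjusted p = 0.027) and Cdkn1b (0.76, adjusted p = 0.031) past the threshold in the difference. It did so for Cdkn1b (-0.40, adjusted p = 0.025) in both against 4OHT. For both against untreated cells it changed no member's call. Comparisons of both compounds with 4OHT or untreated cells had no slide that held both groups, so they have no values within a slide. The difference of responses uses all arrays and has none either. The causes of these moves were not tested.

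Members' values that changed sign did not pass the test in either setting. Median centring gave Ccnd2 -0.080 for both against untreated cells, Ccnd3 -0.13 and Cdc25a -0.11 for 4OHT, and Cdk2 -0.060 for both against MG132. Quantile normalization gave Ccnd3 -0.058 and Cdc25a -0.045 for 4OHT, Ccne2 -0.029 for both against untreated cells, Cdc25a -0.046, Cdk2 -0.0062 and Cdk4 -0.11 for both against MG132, and Cdc25a -0.00040 for the difference. Normexp gave Ccnd3 -0.016 and Ccne2 0.22 for 4OHT, Ccne2 0.073 for MG132 and Cdk6 -0.0012 for the difference. Array weights gave Cdk2 -0.048 for both against MG132 and Cdk6 -0.13 for the difference, and the mean over probes Cdc25a -0.050 for 4OHT. With slide as a block Ccne2 was 0.066 for MG132 (0.058 with slide and replicate blocks, 0.066 within slide 1), Cdkn1b 0.25 for both against 4OHT and 0.16 for both against MG132 (0.16 within slide 2). Leaving out 1 array, values ranged over both signs for 4OHT from -0.12 to 0.19 (Ccnd3), -0.33 to 0.35 (Ccne2) and -0.074 to 0.044 (Cdk4), for MG132 from -0.36 to 0.066 (Ccne2), for both against MG132 from -0.037 to 0.081 (Cdk2), for both against 4OHT from -0.087 to 0.031 (Cdk4) and for the difference from -0.17 to 0.21 (Cdk6). Beyond the shifts given with MG132, the median of all genes moved by -0.12 (both against 4OHT) and -0.11 (difference) with normexp, and by -0.10 (4OHT), -0.11 (MG132) and -0.19 (both against untreated cells) with quantile normalization.

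Counts over all genes that moved over 1.5 times were 14466 without a filter and 5073 with only the arrays compared for 4OHT (main 7667), 5334 with slide as a block and 4833 with slide and replicate blocks for both against 4OHT (13480), and 7023 and 6056 for both against untreated cells (14934). Both against MG132 gave 14950 with array weights, 2988 and 2312 with those blocks, 2090 within slide 2 and 4621 to 4723 without MG132 replicate 2 or replicate 1 or 2 of both compounds (7109). The difference gave 6048 with array weights, 804 with each of those blocks and 1038 to 1129 without replicate 1 or 2 of MG132, of both compounds or of untreated cells (1760). Splits of higher and lower genes were 2390 and 5353 with median centring, 7069 and 3257 with normexp and 2970 and 4849 with quantile normalization for 4OHT (3731 and 3936), and with median centring 3606 and 9453 for MG132 (6473 and 5093), 2590 and 3580 for both against MG132 (3723 and 3386), 5055 and 8004 for both against 4OHT (7877 and 5603), 4452 and 9996 for both against untreated cells (8901 and 6033; 6697 and 7145 with quantile normalization) and 905 and 639 for the difference (790 and 970).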

Other observations

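The gene next to Cdkn1b on the annotation, Lockd, a non-coding transcript, ranked 3 of 15922 genes by correlation with Cdkn1b over the 12 arrays (Pearson r = 0.97). It was chosen after its value was seen, and the arrays share their groups. Gpr19 and Crebl2, on the other side of Cdkn1b, had r of 0.37 and 0.18. On the same side as Lockd, Apold1, Ddx47 and Gprc5a had r of -0.74, 0.37 and -0.55. Of the genes tested near Ccne1, 1600014C10Rik (r = 0.96, rank 89) and Plekhf1 (r = 0.95, rank 165) lie 4 and 5 genes away and followed its levels. Uri1 (r = 0.01), 3 genes away on the other side, did not.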
